A study of Mus musculus with 24 samples.

Results

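Kidneys of mice taken 28d after a permanent tie was placed on the LAD, a main coronary artery, which causes a myocardial infarction (MI), were compared with kidneys of sham-operated mice across every expressed gene. All mice were wildtype C57BL/6J males operated on at 8 to 11 weeks of age. The comparison used 14 of the 24 kidneys of the series, 8 from sham-operated mice and 6 of the 7 labelled 28d post-MI, because the counts of the remaining one stood under a column name that a kidney of another group shares. Another 8 kidneys at 5d post-MI entered the model only to estimate the spread between kidneys. Because sham mice were killed on day 5, the groups differ by 23 days in age and in time from the operation as well as by the infarct, and these cannot be told apart here. RNA was measured by Massive Analysis of cDNA Ends (MACE), which reads the 3′ ends of mRNA and counts each molecule by its identifier, and levels are given below as normalised counts scaled to library size (CPM).

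The nephron filters blood in the glomerulus and recovers most of the filtrate in the proximal tubule, whose S1, S2 and S3 segments carry a brush border of transporters and peptidases. The thick ascending limb, distal convoluted tubule, connecting tubule and collecting duct then adjust salt, water and acid. Proximal tubule cells burn fatty acids and ketone bodies and fold large amounts of membrane protein.

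Total counts per kidney were between 2280618 and 3786275 in sham kidneys and between 2522894 and 3269306 at 28d post-MI. Of 156 nephron markers listed, 142 passed the filter on low counts, while all 10 neutrophil markers and 13 of 14 T and NK cell markers did not. Libraries also held RNA of neighbouring tissue: the steroid synthesis genes Cyp11a1, Cyp11b1, Cyp21a1 and Star of the adrenal cortex summed to 724 CPM in sham replicate 2 and 545 CPM in sham replicate 6, and to no more than 2.48 CPM in each other kidney. In such whole-kidney RNA, fewer cells of a type and less RNA per cell cannot be told apart.

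Only 3 genes passed an adjusted p-value of 0.05, all of them higher at 28d post-MI, which is 0.0235% of the 12780 genes tested (edgeR, 22 kidneys), and the share of genes that fell was 0%. Those described here were Atf4 (ENSMUSG00000042406), a transcription factor of the integrated stress response, and Brd2 (ENSMUSG00000024335), which reads acetylated histones. In GENCODE M21 (GRCm38), Atf4 lies on chromosome 15 from 80255184 to 80257541 and Brd2 on chromosome 17 from 34112023 to 34122634. At an unadjusted p-value under 0.05, 4.45% of the tested genes were higher and 4.23% were lower at 28d post-MI, and all 6 kidneys lay above every sham kidney for 0.188% of genes and below for 0.0704%.

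Brd2 ranged from 149.8 to 179 CPM in sham kidneys (median 164) and from 167 to 227 CPM at 28d post-MI (median 219), 1.27-fold higher (log2 0.35, standard error 0.06, edgeR adjusted p = 0.0168). One kidney at 28d post-MI fell within the sham range. Atf4 ranged from 122 to 148 CPM in sham kidneys (median 127) and from 138 to 204 CPM at 28d post-MI (median 177), 1.35-fold higher (log2 0.43, standard error 0.07, edgeR adjusted p = 0.00974). In 5 of the 6 kidneys the level exceeded every sham kidney, and 28d replicates 2, 3 and 7 were highest, at 195, 204 and 199 CPM. None of the 3 genes passed without 28d replicate 2 (edgeR adjusted p = 0.0775 for both Atf4 and Brd2) or without 28d replicate 7 (0.0857 and 0.0898).

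**Figure D1:**
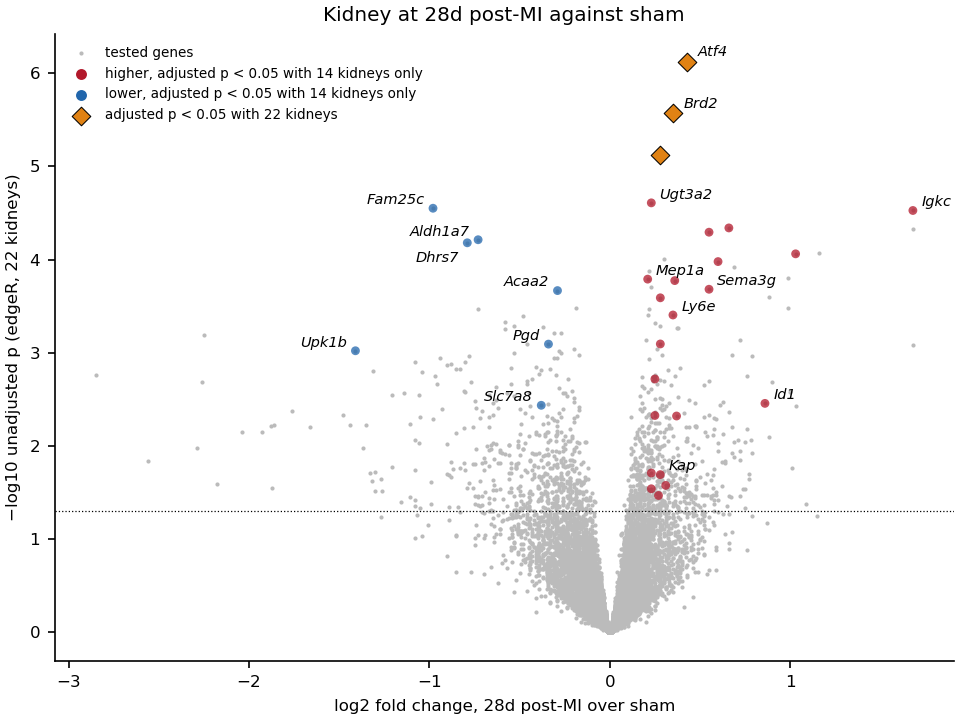
Each point is a gene, with the log2 fold change at 28d post-MI over sham on the x axis and the −log10 unadjusted p-value of edgeR with 22 kidneys on the y axis. Atf4 and Brd2 are among the 3 diamonds, the genes called with 22 kidneys, which stand at the top, and the coloured circles, called only when the 14 kidneys were fitted alone, lie mostly on the side of higher expression.

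The same test fitted to the 14 kidneys alone, without the 5d kidneys, called 31 genes, of which 24 rose (0.196% of 12266 genes tested) and 7 fell (0.0571%). These included Atf4 and Brd2, and all 31 had the same direction and an unadjusted p-value under 0.05 with 22 kidneys. DESeq2 on the same 14 kidneys called 67 genes, 41 higher (0.975% of 4203 genes with an adjusted p-value) and 26 lower (0.619%), and 23 genes were shared with the 31. Genes called only by one of these fits are named below with the fit, and verbs of change refer to it.

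Several brush border genes of the proximal tubule rose in the 14-kidney fit. Of 21 brush border genes tested, 9 were higher and 2 were lower at an unadjusted p-value under 0.05, and their median log2 fold change was 0.14, against 0.00 over all genes. Mep1a, Ggt1, Aqp1 and Napsa rose in the 14-kidney fit, and DESeq2 called 6 of the 21, all higher. Mep1a, a subunit of the brush border protease meprin, ranged from 1142 to 1374 CPM in sham kidneys (median 1234) and from 1333 to 1461 CPM at 28d post-MI (median 1439), with a log2 fold change of 0.21 (adjusted p = 0.107 in edgeR with 22 kidneys and 0.0295 with 14). The level was above every sham kidney in 5 of 6. The water channel Aqp1 had medians of 471 CPM in sham kidneys and 544 CPM at 28d post-MI (edgeR adjusted p = 0.521 and 0.0405), and gamma-glutamyltransferase Ggt1, which breaks down glutathione, had medians of 1028 and 1234 CPM (adjusted p = 0.479 and 0.0405). With a score of adipocyte markers (mean log2 CPM of the white and brown adipocyte lists) as a covariate, the log2 fold change of Aqp1 went from 0.23 to 0.11 and of Napsa from 0.25 to 0.13.

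The angiotensin-cleaving peptidases of the brush border did not share a direction. Ace had a median of 147 CPM in sham kidneys and 174 CPM at 28d post-MI (log2 0.25, unadjusted p = 0.00172 in edgeR), and Mme, which encodes neprilysin, had medians of 71.0 and 92.0 CPM (log2 0.28, unadjusted p = 0.00195). Enpep, aminopeptidase A, had medians of 86.8 and 74.4 CPM (log2 −0.16, unadjusted p = 0.0427). Of these, only Ace passed in DESeq2 with 14 kidneys (adjusted p = 0.0253), and none passed in edgeR with 22 or 14 kidneys. In the wider list of renin-angiotensin and aldosterone genes, 2 of 17 were higher and 2 were lower.

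Along the proximal tubule, most S2 and S3 markers had positive differences and S1 markers were split evenly. Of 13 S3 markers, 12 had a positive log2 fold change and 3 were higher at the unadjusted threshold, with a median of 0.13. Kap, the kidney androgen-regulated protein, was among the most abundant mRNAs, at 42725 to 51699 CPM in sham kidneys (median 49788) and 53724 to 61786 CPM at 28d post-MI (median 59867), a log2 fold change of 0.28 (adjusted p = 0.479 in edgeR with 22 kidneys, 0.00163 with 14 and 1.7e-05 in DESeq2). Its groups did not overlap. Slc7a13, an S3 amino acid transporter, rose in the 14-kidney fit, from a median of 803 to 997 CPM (adjusted p = 0.0405), and the S3 sugar transporter Slc5a10 had medians of 192 and 225 CPM (unadjusted p = 0.0125).

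Of 8 S1 markers none was higher and 1, the lactate transporter Slc5a12, was lower at the unadjusted threshold (medians 39.1 and 30.9 CPM, log2 −0.32, adjusted p = 0.335 in edgeR), and their median log2 fold change was −0.03. Of 8 S2 markers 7 had a positive log2 fold change, with a median of 0.11 for the list, close to the 0.13 of S3 markers. None of the 8 was higher at the unadjusted threshold. The exception in direction, the amino acid transporter Slc7a8, fell in the 14-kidney fit, from 128 to 164 CPM in sham kidneys (median 149) to between 101 and 141 CPM (median 109), with a log2 fold change of −0.39 (adjusted p = 0.00666). The level was below every sham kidney in 5 of 6. With 22 kidneys its adjusted p-value was 0.323. Other S2 genes were close to sham or slightly above, such as the dicarboxylate carrier Slc13a3 (log2 0.27, unadjusted p = 0.0988) and Cyp4b1 (log2 0.24, unadjusted p = 0.0923). Slc13a3 was at 925, 977 and 844 CPM in 28d replicates 2, 3 and 7 and at 597 to 662 CPM in the others. In sham kidneys it ranged from 408 to 845 CPM. The amino acid transporters as a list went both ways, with 3 of 21 higher, among them Slc38a2 (medians 69.1 and 86.7 CPM), and 4 lower. Among the lower ones was the glutamine transporter Slc1a5 (medians 57.2 and 39.7 CPM, log2 −0.45, DESeq2 adjusted p = 0.0403). Slc1a5 was at −0.10 with the adipocyte score as a covariate.

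**Figure D2:**
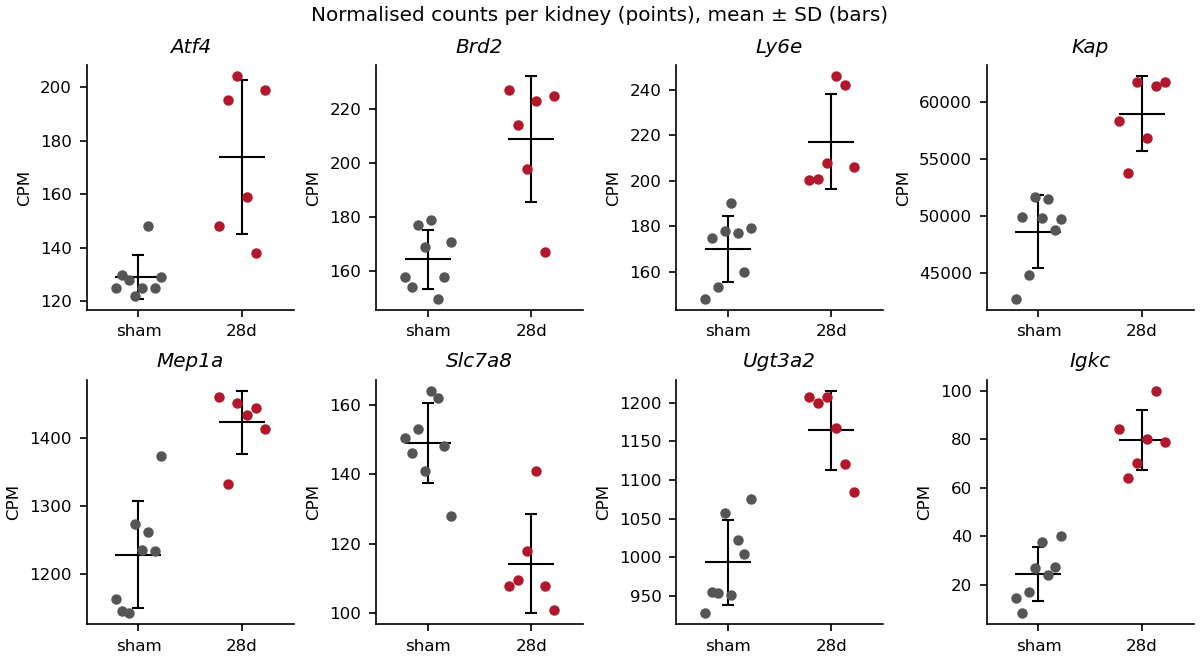
CPM of 8 genes in each kidney, sham on the left and 28d post-MI on the right of each panel, with the mean and SD as bars (8 and 6 kidneys). Ly6e, Kap, Ugt3a2 and Igkc do not overlap between the groups, while Atf4, Brd2, Mep1a and Slc7a8 overlap in 1 kidney at 28d post-MI.

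Genes that conjugate and transport small organic molecules, also a task of the proximal tubule, were higher in 5 of 19 and lower in none at the unadjusted threshold (median log2 fold change 0.13). Ugt3a2, a glycosyltransferase, ranged from 928 to 1075 CPM in sham kidneys (median 979.9) and from 1085 to 1207 CPM at 28d post-MI (median 1183), with no overlap (log2 0.23, edgeR adjusted p = 0.0633 with 22 kidneys and 0.018 with 14). Its neighbour in the family Ugt3a1 had medians of 151 and 170.1 CPM (unadjusted p = 0.00263), and since the family members are alike in sequence, reads could be split between them. Inmt, a methyltransferase, had medians of 677 and 1040.2 CPM (log2 0.58, unadjusted p = 0.00503, DESeq2 adjusted p = 0.0403), and the carnitine transporter Slc22a5 had medians of 120.2 and 141 CPM. The abundant urate transporter Slc22a12 was at 1205 and 1389 CPM (log2 0.14, unadjusted p = 0.146). Among androgen-responsive kidney genes, which overlap this list and the S3 list, 3 of 15 were higher and none lower: Kap, Cyp4a12a (medians 13.2 and 22.4 CPM) and Akr1c14, which rose in the 14-kidney fit (medians 173 and 227 CPM, adjusted p = 0.0195). All mice were male, and androgen levels were not measured.

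Beyond the thick ascending limb, few distal markers passed the unadjusted threshold. Of 11 thin limb markers 9 had a negative log2 fold change (median −0.16 for the list), with 1 higher, Aqp1, and 1 lower, Spp1, at the unadjusted threshold. In the thick ascending limb, 3 of 15 markers were higher, against 4.45% of all genes. There 14 of 15 had a positive log2 fold change, with a median of 0.11, close to the 0.13 of S3 markers. The potassium channel Kcnj1 had medians of 99.8 and 127 CPM (log2 0.29, unadjusted p = 0.00412, adjusted p = 0.331 in edgeR), the growth factor Egf 559 and 644 CPM (log2 0.17), and the chloride channel subunit Bsnd 57.7 and 62.1 CPM (log2 0.17). Umod, the most abundant of them, was at 838 and 931 CPM (log2 0.13, unadjusted p = 0.148). Of 12 distal convoluted tubule genes, Wnk4, a kinase that regulates salt transport, was the single one past the unadjusted threshold (medians 118 and 128 CPM, unadjusted p = 0.0316).

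In the connecting tubule 1 of 9 markers passed it, kallikrein Klk1, with medians of 1795 and 2071 CPM (log2 0.18, unadjusted p = 0.0018), while the calcium-binding protein gene S100g was at 1338 and 1494 CPM (unadjusted p = 0.0923). Principal cell markers gave 1 of 15, Kcnj1 again, and the sodium channel subunit Scnn1g had a log2 fold change of 0.23 (unadjusted p = 0.0674). Among 15 intercalated cell markers only Car2, a carbonic anhydrase, differed, at a median of 303 CPM in sham kidneys and 275 CPM at 28d post-MI (log2 −0.20, unadjusted p = 0.000907, adjusted p = 0.227 in edgeR), and the ammonia transporter Rhcg had a log2 fold change of 0.15. No distal or collecting duct marker passed an adjusted threshold in edgeR with 22 or 14 kidneys or in DESeq2 with 14, while edgeR without a filter on low counts called Kcnj1 and Klk1 (adjusted p = 0.0125 and 0.0364).

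In the glomerulus, 2 of 14 podocyte genes were higher at the unadjusted threshold and none lower. Sema3g, a semaphorin of podocytes and endothelium, ranged from 17.4 to 29.2 CPM in sham kidneys (median 23.9) and from 25.6 to 45.5 CPM at 28d post-MI (median 33.6), and it rose in the 14-kidney fit (log2 0.55, adjusted p = 0.0334). The podocyte transcription factor Wt1 had medians of 6.69 and 9.41 CPM (unadjusted p = 0.0577). Of 18 endothelial genes 1 was higher, Sema3g, and 1 was lower, Cdh5 (medians 26.1 and 20.7 CPM), and the angiopoietin receptor gene Tek was at 18.5 and 23 CPM.

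Markers of mural cells and fibroblasts had mostly negative differences. Of 13 mesangial, pericyte and smooth muscle genes, 4 were lower and none higher, and 1 had a positive log2 fold change. Acta2, smooth muscle actin, had medians of 61.6 and 48.2 CPM (log2 −0.32, unadjusted p = 0.0112), Rgs5 39.1 and 34.2 CPM, and Myh11 17.3 and 12.8 CPM. Renin, Ren1, was at 142 and 116 CPM (log2 −0.28, unadjusted p = 0.183). Of 23 fibroblast and matrix genes, 3 were lower and none higher, with a median log2 fold change of −0.28: decorin Dcn (medians 86.2 and 69.4 CPM, DESeq2 adjusted p = 0.0448), elastin Eln (9.84 and 6.24 CPM) and gelsolin Gsn (135 and 109.6 CPM). The most abundant of them, Igfbp5, was at 378 and 289 CPM (unadjusted p = 0.0623). With the adipocyte score as a covariate Dcn was at −0.10 and Gsn at −0.03.

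**Figure D3:**
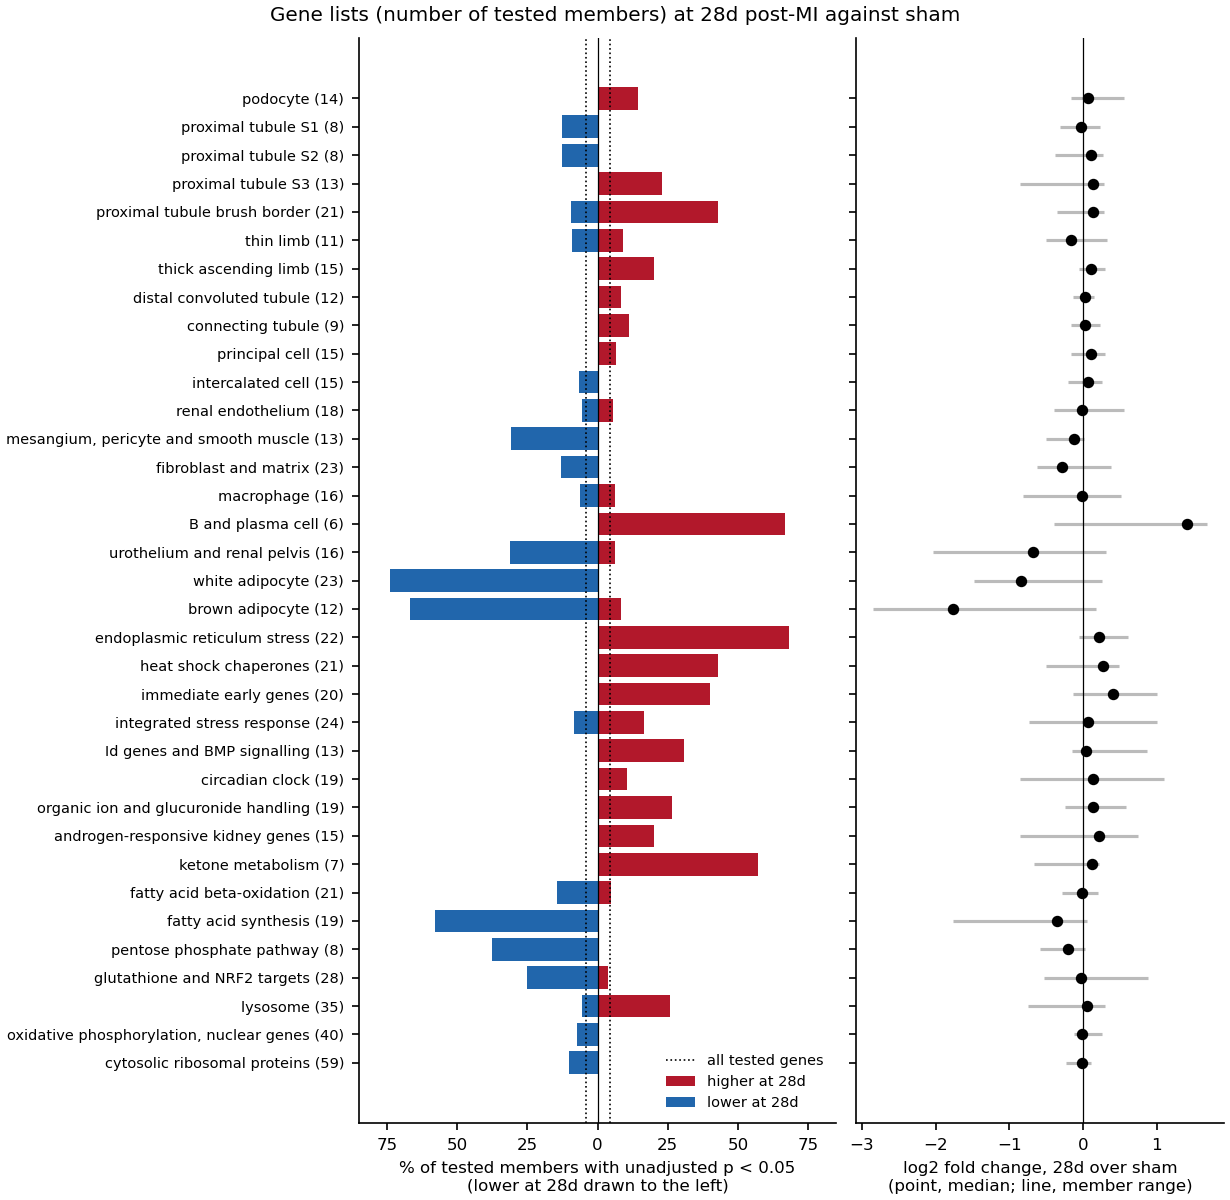
For each gene list, with its number of tested members in brackets, the left panel gives the percentage of members with an unadjusted p-value under 0.05 that were higher (red) or lower (blue) at 28d post-MI, with dotted lines at the 4.45% and 4.23% of all tested genes, and the right panel the median and the range of log2 fold changes. Endoplasmic reticulum stress and brush border genes lie on the higher side, and adipocyte and fatty acid synthesis genes on the lower side.

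Chaperone genes were higher in many members. Of 22 endoplasmic reticulum stress genes, 15 were higher and none was lower at the unadjusted threshold (against 4.45% of all genes), and their median log2 fold change was 0.21, although none passed an adjusted threshold in edgeR with 22 or 14 kidneys or in DESeq2 with 14. Without a filter on low counts edgeR called 1 member described below, Creld2 (adjusted p = 0.016). This list covers the unfolded protein response, in which chaperones and degradation factors of the endoplasmic reticulum are induced through a promoter element, the ERSE, made of CCAAT and CCACG with 9 bases between them. The ERSE was chosen for the search after the values were seen. On either strand it was found in 8 of the 19 list members with a promoter in the RefSeq table (42.1%: Calr, Canx, Creld2, Dnajc3, Hsp90b1, Hspa5, Pdia6 and Syvn1) and in 37 of all 27025 promoters of the same length, 250 bases before to 50 after the start (0.137%). The stretches around the element are shown for the 4 of these genes that are described here, from GRCm38.p6, 5′ to 3′ on the gene's strand, with the element in capitals (its reverse complement in Calr and Creld2). A match is a description of the sequence and not evidence of binding in these kidneys.
Hspa5 (chr2:34772010-34772058, plus strand): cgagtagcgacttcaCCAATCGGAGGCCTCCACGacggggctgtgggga
Syvn1 (chr19:6046517-6046565, plus strand): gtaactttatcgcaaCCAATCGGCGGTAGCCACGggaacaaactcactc
Creld2 (chr15:88819505-88819553, plus strand): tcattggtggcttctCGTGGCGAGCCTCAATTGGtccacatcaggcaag
Calr (chr8:84847060-84847108, minus strand): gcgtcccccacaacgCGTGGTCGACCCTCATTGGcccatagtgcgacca

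Hspa5, which encodes the major chaperone BiP, was at 262 to 429 CPM in sham kidneys (median 317). At 28d post-MI it was at 281, 629, 777, 335, 364 and 526 CPM in replicates 1, 2, 3, 4, 6 and 7 (log2 0.61, standard error 0.19, unadjusted p = 0.00365, adjusted p = 0.323 in edgeR). Replicates 2, 3 and 7 were above every sham kidney and the other 3 were within the sham range. Creld2, a secreted folding factor, was highest in the same 3 kidneys, with 27.2, 35.8 and 28.5 CPM in replicates 2, 3 and 7, 14.2 to 21.1 CPM in the others and 13.8 to 23.3 CPM in sham kidneys (log2 0.52, unadjusted p = 0.00222). The ubiquitin ligase Syvn1 had medians of 10.5 and 13.2 CPM (unadjusted p = 0.0062), and Calr, calreticulin, 566 and 637 CPM (unadjusted p = 0.0333). Os9, a lectin that sorts misfolded proteins, was above every sham kidney in 5 of 6 (medians 139 and 159 CPM, log2 0.17, unadjusted p = 0.00289).

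Hspa8 of the cytosolic heat shock chaperones was highest in the same kidneys. Of 21 genes tested, 9 were higher and none lower (median log2 fold change 0.27). Hspa8, a constitutive HSP70, was at 1351, 1459 and 1198 CPM in 28d replicates 2, 3 and 7 and at 698 to 849 CPM in replicates 1, 4 and 6, against 580.4 to 944 CPM in sham kidneys (log2 0.49, unadjusted p = 0.0105, adjusted p = 0.401 in edgeR). Fkbp4, a co-chaperone of steroid receptors, had medians of 112 and 139.8 CPM (log2 0.30, adjusted p = 0.0894 in edgeR and 0.0448 in DESeq2), and Ahsa1, an activator of HSP90, 34.4 and 40 CPM. Cryab, a small heat shock protein of the medulla, was at 423 and 263 CPM (log2 −0.51, DESeq2 adjusted p = 0.0481), but the sign of its log2 fold change turned with the urothelium score as a covariate (0.09). The heat shock element, GAA, TTC and GAA spaced by 2 bases, was found in 4 of 16 promoters of the list (25%) and in 0.662% of all promoters. Those 4 were Chordc1, Hspd1, Hspe1 and Hsph1, none of which is among the genes described above. Proteasome genes gave 0 of 25 past the unadjusted threshold in edgeR (the same count at adjusted thresholds in edgeR with 22 or 14 kidneys and DESeq2 with 14), with Psma7 at a log2 fold change of 0.08.

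The integrated stress response, in which Atf4 is translated and activates genes of amino acid supply, gave 4 of 24 genes higher and 2 lower (median log2 fold change 0.06). Besides Atf4, the higher ones were Ddit3 (medians 3.67 and 5.95 CPM, log2 0.99, adjusted p = 0.149 in edgeR), Atf3 (3.18 and 6.54 CPM, log2 1, adjusted p = 0.29) and the amino acid transporter Slc38a2. The ATF4 target Eif4ebp1 was lower (27.6 and 18.5 CPM, log2 −0.53, unadjusted p = 0.000993), and was at −0.21 with the adipocyte score as a covariate. Nupr1 was at 75.4 and 40 CPM (log2 −0.74, unadjusted p = 0.0701, DESeq2 adjusted p = 0.0403), although the sign of Nupr1 turned with the urothelium score as a covariate (0.01). Of 20 aminoacyl-tRNA synthetase genes, which ATF4 is known to activate, none passed the unadjusted threshold in edgeR and none an adjusted one in edgeR with 22 or 14 kidneys or DESeq2 with 14, Sars being at 98.3 and 108 CPM. The ATF4-C/EBP composite element, TGATGNAAT, was present in 2 of 25 promoters of the list (8%), Fgf21 and Nupr1, and in 1.08% of all promoters, and the cAMP response element, TGACGTCA, in 1 (Ppp1r15a, 4%) and in 2.03%. Neither was in the promoters of Atf4 and Brd2.

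Some clock genes also stood apart in 28d replicates 2, 3 and 7. Nr1d1, which encodes the repressor REV-ERBα and peaks once a day, was at 2.51, 4.47 and 11.9 CPM in 28d replicates 2, 3 and 7, at 37.7 to 49.5 CPM in the other 3, and at 37.8 to 62.3 CPM in sham kidneys except for 19.4 CPM in sham replicate 8. Cry1, a clock repressor of another phase, was at 17.5, 15 and 8.78 CPM in replicates 2, 3 and 7 and at 1.87 to 4.37 CPM in the others. In sham replicate 8 Cry1 (7.49 CPM), Hspa5 (429 CPM) and Hspa8 (944 CPM) were also the highest of the sham group.

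As groups, 2 of 19 clock genes were higher and none lower, Cry1 (log2 1.09, unadjusted p = 0.0417) being one of them, and Nr1d1 (log2 −0.85) and Bhlhe41 (log2 −0.54) had unadjusted p-values of 0.0913 and 0.0794. Atf4, one of the 3 called genes, was highest in 28d replicates 2, 3 and 7 as well. So were Slc13a3, Kcnj1, Klk1, S100g, Krt7, Tubb4b and Id2, for which group medians or fold changes are given. The time of day at which each kidney was taken is not given in the sources used here. Its part in the values of these genes and of the chaperone genes was not tested. Because the 28d kidneys fell into separate sets for Nr1d1, no correlation was computed. The E-box CACGTG was present in 5 of 17 clock gene promoters (29.4%), Cry1 among them, and in 8.09% of all promoters, and the D-box TTATGTAA in 1 (Per3, 5.88%) and in 1.11%.

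**Figure D4:**
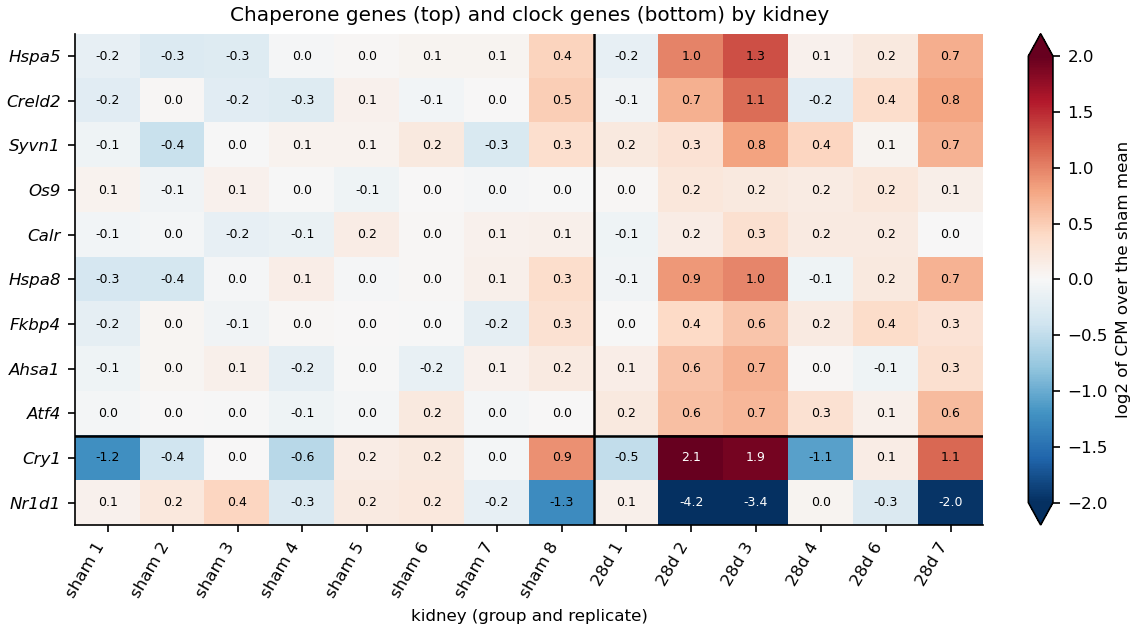
Colour and number give the log2 of CPM over the sham mean for 8 chaperone and folding genes and Atf4 (above the line) and 2 clock genes (below it) in each kidney, sham on the left and 28d post-MI on the right. The 28d replicates 2, 3 and 7 combine high Hspa5, Hspa8, Atf4 and Cry1 with low Nr1d1, and sham replicate 8 is nearest to them among sham kidneys.

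Immediate early genes differed in which kidneys were highest. Of 20 such genes, which are transcribed within minutes of a stimulus, 8 were higher and none lower (median log2 fold change 0.41). Zfp36l1, an mRNA decay factor, ranged from 59.9 to 74.6 CPM in sham kidneys (median 66.4) and from 74.7 to 107 CPM at 28d post-MI (median 84.9), without overlap, and it rose in the 14-kidney fit (log2 0.36, adjusted p = 0.0334). Ier3 had medians of 79.5 and 120.3 CPM (unadjusted p = 0.0177), Jund 168 and 197 CPM (unadjusted p = 0.0171), and Dusp1, a phosphatase that glucocorticoids also induce, 243 and 346 CPM (unadjusted p = 0.0416). Egr1 was at 337 and 349 CPM (unadjusted p = 0.323). Dusp1 was highest in 28d replicates 1, 4 and 7, at 419.7, 477 and 440.1 CPM, and Zfp36l1 in replicates 2, 4 and 3, at 107, 96.1 and 91.5 CPM.

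The Id genes, targets of bone morphogenetic protein signalling that hold back differentiation factors, were higher as a family. Id1, Id2, Id3 and Id4 were the 4 of 13 genes of their list past the unadjusted threshold, all higher, and DESeq2 called all 4. Id1 ranged from 25.7 to 44.8 CPM in sham kidneys (median 35.9) and from 44.1 to 88.1 CPM at 28d post-MI (median 66.7), 1.82-fold higher (log2 0.86, adjusted p = 0.317 in edgeR with 22 kidneys, 0.0405 with 14 and 6.92e-06 in DESeq2). Id3 (59.9 to 104 CPM against 104 to 149 CPM) and Id4 (26.8 to 50 CPM against 51.6 to 73.6 CPM) did not overlap before rounding, and their edgeR adjusted p-values with 22 kidneys were 0.231 and 0.096. Id2, the most abundant, had medians of 319.7 and 446 CPM (log2 0.55). The other 9 genes of the list had log2 fold changes between −0.15 and 0.12, and the list's median log2 fold change was 0.04.

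Fuel metabolism genes differed by pathway. Of 7 ketone body genes, 4 were higher and none lower at the unadjusted threshold. The list's log2 fold changes ranged from −0.66 to 0.22, and its mean log2 CPM at 28d post-MI was 0.01 above the sham mean. Oxct1, the enzyme that commits ketone bodies to oxidation, ranged from 863 to 931 CPM in sham kidneys (median 879) and from 912 to 1039 CPM at 28d post-MI (median 960.3), with 5 of 6 above every sham kidney (log2 0.12, unadjusted p = 0.0106, DESeq2 adjusted p = 0.0448). Bdh2 had medians of 226 and 268 CPM (log2 0.22, DESeq2 adjusted p = 0.0373), Bdh1 186 and 218 CPM, and Acat1 653 and 701 CPM. Fatty acid beta-oxidation gave 1 of 21 higher and 3 lower. The short-chain dehydrogenase Acads was higher (medians 204 and 236 CPM, log2 0.20, edgeR adjusted p = 0.208, DESeq2 0.00979), and the thiolase Acaa2 fell in the 14-kidney fit (medians 225 and 185 CPM, log2 −0.29, adjusted p = 0.0405). Hadha (181 and 155 CPM) and Hadhb (83.4 and 68.2 CPM), the subunits of the trifunctional protein for long chains, were lower at the unadjusted threshold. With the adipocyte score as a covariate Acaa2 was at −0.16, Hadha at −0.03 and Hadhb at −0.09.

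The peroxisomal and fasting-responsive targets of PPAR alpha gave 1 of 14 higher, Cyp4a12a, and 3 lower. Cyp4a14, a fatty acid hydroxylase, varied widely among sham kidneys, from 19.3 to 204 CPM, with levels of 127, 167 and 204 CPM in sham replicates 1, 2 and 3, and was at 12.3 to 33.2 CPM at 28d post-MI (log2 −1.88, unadjusted p = 0.00612, DESeq2 adjusted p = 0.0327). Pdk4, which spares glucose in fasting, had medians of 17.9 and 10.5 CPM, but its sign turned with the adipocyte score as a covariate (0.06), and the lipid droplet gene Plin5 had 7.95 and 5.46 CPM. Among the remaining mitochondrial genes, 0 of 40 nuclear genes of oxidative phosphorylation were higher and 3 were lower (median log2 fold change −0.01). Of 13 mitochondrial genes 3 were higher (mt-Co1, 5210.2 and 5548 CPM, log2 0.12). Of 20 citrate cycle genes 2 were lower, citrate synthase Cs (239 and 217 CPM) and Pdhb (125 and 112 CPM). The log2 fold change of Cs went from −0.15 to −0.04 under the adipocyte covariate, and that of Pdhb from −0.20 to −0.11. The glucose transporter gene Slc2a1 ranged from 24.8 to 39.6 CPM in sham kidneys and from 39.6 to 45.1 CPM at 28d post-MI, without overlap before rounding (log2 0.32, unadjusted p = 0.00154, adjusted p = 0.259 in edgeR), while Slc2a2 of the basolateral proximal tubule had medians of 122 and 103 CPM (unadjusted p = 0.0142).

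Lipid storage genes were lower together with adipocyte markers. Of 19 fatty acid synthesis genes, 11 were lower and none higher (median log2 fold change −0.35), and of 23 white adipocyte markers 17 were lower and none higher (−0.84), against 4.23% of all genes lower. Some genes are in both lists, so the counts are not independent. Fasn ranged from 148 to 1042 CPM in sham kidneys (median 493) and from 135 to 285 CPM at 28d post-MI (median 178), Scd1 had medians of 1192 and 594 CPM, and the citrate lyase Acly 191 and 117 CPM. The adipocyte genes Fabp4 (702 and 327 CPM), Lipe (47.0 and 23.3 CPM), Pnpla2 (152 and 98.8 CPM) and Cebpa (117 and 72.6 CPM) and the brown adipocyte genes Cidea (60 and 12.1 CPM), Cox8b (48.6 and 13.8 CPM) and Kcnk3 (12 and 2.66 CPM) had the same direction. Of 12 brown adipocyte markers tested, 8 were lower and 1 was higher at the unadjusted threshold. Kcnk3 was at 61.2 and 48.2 CPM in sham replicates 2 and 6, the libraries with adrenal RNA, and at 2.5 to 18.6 CPM in the other sham kidneys. None of these genes passed in edgeR with 22 or 14 kidneys, though Pnpla2 passed without sham replicate 8. Lipe, Pnpla2 and Cebpa passed with the replicate block, a fit that also left out sham replicates 5 and 8 and the 5d kidneys. DESeq2 with 14 kidneys called Fasn, Scd1, Fabp4, Lipe, Pnpla2, Cebpa, Cidea and Cox8b. The summed level of the 24 white adipocyte markers ranged from 2367 to 4978 CPM in sham kidneys and from 2509 to 3509 CPM at 28d post-MI, and Lpl, the most abundant, which other renal cells also express, was at 999 and 1195 CPM. The sum of the 16 brown adipocyte markers was not lower, at 2955 to 3459 CPM in sham kidneys (median 3077) and 3054 to 3484 CPM at 28d post-MI (median 3282).

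With the adipocyte score as a covariate the log2 fold change of Fasn went from −1.44 to −0.12 and that of Scd1 turned sign (0.17). Neither gene is in the score, but the score itself differed between the groups. Relative to the sham mean, its white list was at −1.11 to −0.27 and its brown list at −1.50 to −0.57 at 28d post-MI. The covariate therefore cannot separate adipocyte content from the group difference. Lipe (−1.08 to −0.26) and Fabp4 (to 0.16) are members of the score, so that their values shrink by construction. Atf4 was at 0.49, Kap at 0.31 and Hspa5 at 0.60 with the covariate. The pentose phosphate pathway, which supplies NADPH for lipid synthesis and for glutathione, had 3 of 8 genes lower and none higher. Pgd fell in the 14-kidney fit (medians 145 and 115 CPM, log2 −0.34, adjusted p = 0.0405), Tkt had medians of 179 and 121 CPM (log2 −0.58, edgeR adjusted p = 0.176, DESeq2 7.83e-05), and G6pdx 27.1 and 22.7 CPM. With the adipocyte covariate Tkt was at −0.24 and Pgd at −0.21, and Taldo1, the most abundant of the pathway, was at 361 and 334 CPM without it (unadjusted p = 0.0599).

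Several glutathione transferases were lower at the unadjusted threshold. Of 28 glutathione and NRF2 genes, 7 were lower, all of them transferases, and 1 was higher. Mgst1 had medians of 94.6 and 62.5 CPM (log2 −0.53, edgeR adjusted p = 0.296, DESeq2 0.00979), Gstp1 108 and 94.8 CPM (log2 −0.27, unadjusted p = 0.00101, with reads that could be split with its close copy Gstp2) and Gsto1 40.8 and 32.2 CPM (log2 −0.28, unadjusted p = 0.00439). With the adipocyte covariate the log2 fold changes of Mgst1 and Gstp1 were −0.30 and −0.22. Osgin1, an oxidative stress response gene, was the higher one, at 41.7 to 102 CPM in sham kidneys (median 55.0) and 71.9 to 145 CPM at 28d post-MI (median 114, log2 0.88, edgeR adjusted p = 0.131, DESeq2 0.0169). It was highest in 28d replicates 2, 3 and 7 and in sham replicate 8.

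Immunoglobulin transcripts had the highest log2 fold changes of all genes tested. The constant regions Igkc and Igha and the joining chain Jchain, made by plasma cells, were each at a log2 fold change of 1.68 and did not overlap between the groups. Igkc ranged from 8.26 to 39.9 CPM in sham kidneys (median 25.4) and from 64.1 to 100.1 CPM at 28d post-MI (median 79.3), 3.20-fold higher (edgeR adjusted p = 0.0633 with 22 kidneys and 0.0209 with 14). Igha had medians of 39.4 and 109 CPM and Jchain 6.73 and 16.8 CPM (edgeR adjusted p = 0.213 and 0.0721). Sham replicates 1, 2 and 3 had the least Jchain, at 1.42, 0.751 and 2.65 CPM. Of the 18 B and plasma cell markers 6 passed the filter. Of these, 4 were higher and 0 lower at the unadjusted threshold, and 1 had a negative log2 fold change (−0.39). The most abundant of the list, Xbp1, overlapped, at 61 to 79 CPM in sham kidneys and 61.7 to 107 CPM at 28d post-MI (log2 0.30). The summed level of the list was 111 to 204 CPM in sham kidneys and 280.4 to 396 CPM at 28d post-MI. Surface markers of B cells stayed near 0, Cd79a at no more than 1.5 CPM and Ms4a1 at no more than 1.38 CPM in any kidney of either group, and Mzb1 was at 0 in all. The mice at 28d post-MI were also older, and the part of age was not tested.

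Other immune genes were mixed. Of 16 macrophage markers 1 was higher, Cd14 (medians 5.05 and 7.50 CPM), and 1 was lower, the pan-leukocyte Ptprc (5.60 and 2.84 CPM, log2 −0.81, adjusted p = 0.29 in edgeR), and Csf1r was at 43.4 and 54.6 CPM. Of 28 interferon-stimulated genes 4 were higher and 3 lower. Ly6e ranged from 148 to 190.3 CPM in sham kidneys (median 176) and from 200.4 to 246 CPM at 28d post-MI (median 207), without overlap, and with Ly6a (medians 579 and 674 CPM) it rose in the 14-kidney fit (adjusted p = 0.00666 and 0.0295). Ifit1 (6.65 and 4.51 CPM) and Ifi27 (99.2 and 58.9 CPM) were lower at the unadjusted threshold. Under the adipocyte covariate the log2 fold change of Ifi27 went from −0.63 to −0.15 and that of Ifit1 from −0.80 to −0.67. Class I and II genes gave 2 of 19 higher, the immunoproteasome subunit Psmb8 (19.4 and 20.8 CPM, unadjusted p = 0.0211) among them, and B2m was at 327 and 339 CPM.

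No marker of tubular injury was higher at the unadjusted threshold. Of 11 tested, none was higher and 3 were lower at the unadjusted threshold. They were Spp1, which encodes osteopontin (medians 594 and 539 CPM, log2 −0.16), the complement gene C3 (38.7 and 28.2 CPM, log2 −0.44) and the calcium-binding S100a6 (185 and 121 CPM, log2 −0.72, DESeq2 adjusted p = 0.011). C3 was at −0.04 with the adipocyte score as a covariate. S100a6 was at −0.11 with the urothelium score, of which it is a member. The injury molecule Havcr1 was at no more than 3.01 CPM and Lcn2 at no more than 3.97 CPM in any kidney of either group. S100a6 is also a gene of the urothelium, whose list gave 5 of 16 lower and 1 higher (median log2 fold change −0.68). Upk1b, a uroplakin, fell in the 14-kidney fit (medians 7.44 and 2.68 CPM, log2 −1.41, adjusted p = 0.0295), Sprr1a had medians of 26.8 and 11 CPM and Ly6d 9.99 and 3.75 CPM, with 38.3 CPM of Ly6d in each of sham replicates 2 and 6 and 3.33 to 14.6 CPM in the other sham kidneys, while the keratin Krt7, which collecting ducts also express, was the higher one (69.1 and 83.1 CPM, DESeq2 adjusted p = 0.0167). The summed urothelial level was 389.8 to 659 CPM in sham kidneys and 294 to 439 CPM at 28d post-MI.

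**Figure D5:**
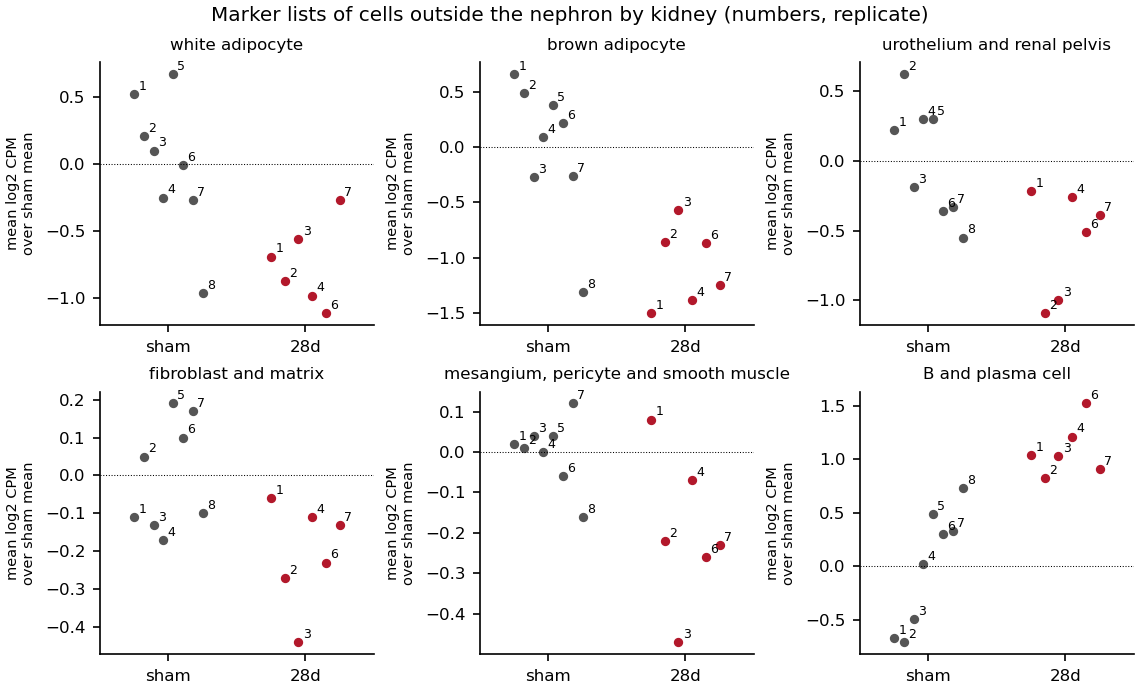
Mean log2 CPM of the tested members of 6 marker lists in each kidney, relative to the sham mean, with the replicate number beside each point. Adipocyte markers are below the sham mean in all 6 kidneys at 28d post-MI and lowest among sham kidneys in replicate 8, and B and plasma cell markers at 28d post-MI lie above all sham kidneys.

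Of 35 lysosomal genes tested, 9 were higher and 2 were lower, with a median log2 fold change of 0.05. Galns, a sulfatase, ranged from 107 to 144 CPM in sham kidneys (median 127) and from 142 to 175 CPM at 28d post-MI (median 152), and it rose in the 14-kidney fit (log2 0.28, adjusted p = 0.0405). Fuca2 (252 and 284 CPM) and Plbd2 (53.8 and 64.2 CPM) were higher at the unadjusted threshold. Of 59 cytosolic ribosomal protein genes none was higher and 6 were lower, Rps15a (329 and 273 CPM), Rps26 (288 and 255 CPM) and Rplp1 (1095 and 1032 CPM) among them, with a median log2 fold change of −0.02 for the list.

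Among the genes with the lowest p-values outside these groups, Tubb4b, a tubulin (medians 15.4 and 22.5 CPM), and Adamts1, a secreted protease (23.1 and 37.4 CPM), rose in the 14-kidney fit (adjusted p = 0.0405 and 0.0328). The dehydrogenases Dhrs7 (19.5 and 10.8 CPM, log2 −0.79, adjusted p = 0.0195) and Aldh1a7 (19.9 and 11.9 CPM, log2 −0.73, adjusted p = 0.0447) and Fam25c (12.7 and 5.43 CPM, log2 −0.98, adjusted p = 0.0209) fell in it. With the adipocyte score as a covariate Dhrs7 was at −0.42. With 22 kidneys the edgeR adjusted p-values of Dhrs7, Aldh1a7 and Fam25c were 0.0766, 0.0766 and 0.0633. Tspan7, a membrane tetraspanin, ranged from 26.9 to 36.4 CPM in sham kidneys and from 19.4 to 26.4 CPM at 28d post-MI without overlap (edgeR adjusted p = 0.176 and 0.133), and Dbi, the acyl-CoA binding protein, had medians of 1431 and 1239 CPM (log2 −0.19, edgeR adjusted p = 0.149 and 0.0626).

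For some of the remaining lists, the members past the unadjusted threshold are given here, against 4.45% of all genes higher and 4.23% lower. Cholesterol synthesis gave 1 of 22 genes higher and 1 lower (median log2 fold change −0.02), glycolysis 1 of 17 higher and 4 lower, and hypoxia-inducible genes 2 of 20 higher and 2 lower. Of 14 cell cycle genes none was higher and 2 were lower (median −0.21), and p53 targets gave 2 of 15 in each direction. BET readers and elongation factors, the list that holds Brd2, gave 2 of 13 higher and 1 lower, and glucocorticoid-responsive genes 1 of 14 in each direction.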

How the data were processed

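Kidney RNA was sequenced by MACE with molecular identifiers. Per the study's methods and processing notes, the authors trimmed reads (Cutadapt), aligned them (Bowtie2), checked them (FastQC), counted them per gene (HTSeq) and tested them (DESeq2). The methods name the build mm10 and the processing notes mm39, and the annotation and strand setting are not given in the sources used here. The authors deposited raw counts per gene, and columns headed TPM that hold CPM per the deposited values. Only the counts were used. Of 48 value columns, 4 were left out because 2 kidneys share their names. Of 56941 gene identifiers, 51948 matched GENCODE M21 (GRCm38), the source of the coordinates.

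Genes were filtered with filterByExpr (minimum count 10), normalised by TMM and tested with edgeR's quasi-likelihood test with robust estimation in 22 kidneys of 3 groups, with Benjamini-Hochberg adjustment at 0.05 (R 4.3.3, edgeR 4.0.16). The test was two-sided. Alternatives were edgeR on the 14 kidneys, DESeq2 1.42.0, voom (limma 3.58.1), other normalisation, no filter, a replicate block, marker scores as covariates and leaving out each kidney. Adipocyte and urothelium scores were mean log2 CPM of those marker lists. On simulated counts for 12780 genes in 28d against sham, edgeR recovered 182 of 200 genes changed by 1 on the log2 scale, with 9 false calls. That change is larger than those of Atf4 (0.43) and Brd2 (0.35), and each gene was drawn independently. The simulation therefore does not give the recovery of changes of the size reported here. Between replicates of a group, counts differed by more than sampling noise (chi-square over degrees of freedom 1.69 to 4.59 in 43 pairs). Each kidney was taken as 1 animal, and the p-values measure only the spread between these samples.

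The comparison, the members and the gene lists were chosen with earlier results of these data known. Named genes were those called, the 12 lowest p-values in each direction, list members called by DESeq2 in the 14 kidneys, up to 4 members of each list with the lowest p-values, its most abundant member, and defining markers near 0. Some genes that meet this rule are not reported here. Genes named only for a promoter match or as part of a marker sum fall outside this rule. Promoter sequences were from RefSeq (GRCm38.p6).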

Additional observations from a re-analysis of the deposited data

Results flagged for a closer look

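In 294 checks of a gene within a group, 21 placed the highest or the lowest kidney far from the others (chance flags about 1 in 20 groups). Among sham kidneys, replicate 8 was highest for Hspa5 (429 CPM), Creld2 (23.3 CPM), Fkbp4 (139 CPM) and Fxyd2 (2992 CPM), and replicate 5 for mt-Co1 (6156 CPM) and G6pdx (36.9 CPM). Atf4 was highest in sham replicate 6 (148 CPM) and Tspan7 in sham replicate 2 (36.4 CPM). At 28d post-MI, replicate 2 was lowest for Mep1a (1333 CPM) and Tmigd1 (333 CPM) and highest for Dcn (85.6 CPM) and Cebpa (89.2 CPM). Replicate 6 was highest for Galns (175 CPM) and Igha (164 CPM) and lowest for Pdhb (96.1 CPM). Replicate 4 was highest for Bsnd (74.4 CPM) and lowest for Sars (92.0 CPM), and replicate 3 was lowest for Myh11 (4.47 CPM) and highest for Acat1 (772 CPM). Ddit3 was highest in replicate 7 (16 CPM) and Bhlhe41 in replicate 1 (12.5 CPM).

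For 19 named genes the change from sham at 28d differed from that at 5d post-MI (edgeR adjusted p under 0.05 for 28d against 5d). Both changes share the sham kidneys, and this test shares the 28d kidneys with the report. The log2 difference, 28d minus 5d, was 0.45 for Atf4, 0.37 for Brd2, 0.46 for Ly6e, 0.20 for Ugt3a2, 0.50 for Zfp36l1, 0.24 for Acads, 0.25 for Calr, 0.29 for Fuca2 and 0.91 for Osgin1. It was 1.78 for Igkc and 2.02 for Jchain. It was 1.11 for Ddit3 and 0.39 for Jund. For Egr1 it was 2.10, with log2 fold changes over sham of 0.40 at 28d and −1.71 at 5d, for Dusp1 1.55 (0.58 and −0.97) and for Atf3 2.06 (1 and −1.06). Renin, Ren1, was at −1.15, with −0.28 at 28d and 0.87 at 5d, Enpep at −0.32 (−0.16 and 0.16) and Gsto1 at −0.40 (−0.28 and 0.13).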

How the results depend on the processing

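The 3 genes called (3 higher, 0 lower) became 31 (24 higher, 7 lower) in edgeR with 14 kidneys, 67 (41 and 26) in DESeq2 with 14 and 30 (19 and 11) with 22, 5 (5 and 0) in voom, 8 (8 and 0) without robust estimation, 94 (46 and 48) without a filter and 1 (1 and 0) with the adipocyte score. Without a filter, 2144 genes had an unadjusted p-value under 0.05, against 1109. Leaving out 1 kidney gave 0 to 29 genes, 0 to 12 higher and 0 to 17 lower. The count was 0 without 28d replicate 2 or 7, 1 without 28d replicate 4 or sham replicate 2, 6 or 7, 5 without sham replicate 4, 6 without 28d replicate 1 or 6, and 29 without sham replicate 8. With the replicate block 92 genes were called (45 higher, 47 lower). That fit kept only sham and 28d kidneys whose replicate number is in both groups. Sham replicates 5 and 8 and the 5d kidneys were left out, so the count does not show the effect of the block alone. The replicate numbers do not pair the kidneys (correlations of deviations −0.082 to 0.080, best match for replicate 1 alone).

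The sign turned with the adipocyte score for Scd1 (0.17), Fabp4 (0.16, a member of the score) and Pdk4 (0.06), and with the urothelium score for Cryab (0.09) and Nupr1 (0.01). The cause was not tested. Of the other values of single genes, 3314 stayed on their side of the threshold, 198 passed it and 11 lost it. Of the list medians, 1348 moved by less than the spread and 8 by more. These depths limit genes of a few CPM, where 1 CPM is a few counts.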
